A study of Mus musculus with 10 samples.

Results

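The myosin-binding proteins C and the myomesins of the M-band were followed as 8 of the 23337 genes counted in each library. They were taken by symbol: Mybpc1, Mybpc2, Mybpc3, Mybph and Mybphl form the myosin-binding protein C family (5 genes), and Myom1, Myom2 and Myom3 form the myomesin family (3 genes). Poly(A) RNA of left ventricle (LV) and skeletal muscle (SkM) had been sequenced from 5 mice aged 17 weeks, hybrids of C57BL/6 and 129SvEv. These were 2 WT mice and 3 E0del/+ mice, which carry on 1 allele a deletion of E0, an element in intron 1 of the titin gene Ttn. Each of the 10 libraries held 1 tissue of 1 mouse and between 11010021 and 17484873 counts. The replicate number (1, 2 or 3) was also the batch, and batch 3 held E0del/+ mice alone.

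The thick filament of striated muscle is a bundle of myosin molecules that is laid out along titin. Myosin-binding proteins C sit in stripes along each side of the filament, bind myosin, actin and titin, and regulate how myosin heads engage actin; slow muscle, fast muscle and heart each have a form of their own. Myomesins crosslink neighbouring thick filaments at the M-band, in the middle of the sarcomere, where they bind myosin and the C-terminal end of titin.

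The genes lie on 8 chromosomes in the mm10 assembly. The C-protein genes are Mybpc1 (chr10:88518279-88605152, minus strand, 30 exons), Mybpc2 (chr7:44501699-44524669, minus strand, 28 exons) and Mybpc3 (chr2:91118144-91136516, plus strand, 32 exons). The shorter relatives are Mybph (chr1:134193448-134201232, plus strand, 11 exons) and Mybphl (chr3:108364911-108380057, plus strand, 9 exons). The myomesin genes are Myom1 (chr17:71019557-71126856, plus strand, 38 exons), Myom2 (chr8:15057653-15133419, plus strand, 37 exons) and Myom3 (chr4:135759715-135815564, plus strand, 37 exons). Ttn, the reference for ratios, lies at chr2:76703984-76982547 on the minus strand with 314 exons and 104320 bases of exon, against 1276 (Mybphl) to 5613 (Myom1) bases for the 8 genes. Levels within a gene are given as CPM (counts divided by the library total and scaled to a total of 1e+06). Levels are compared between genes only as RPKM, the CPM divided by the kilobases of exon.

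Both tissue labels were checked against marker genes. A list of 6 ventricle genes (Myh6, Tnni3, Tnnt2, Ryr2, Pln and Myl3) summed to 52985 to 77401 CPM in the 5 LV libraries and to 83.3 to 409 CPM in the 5 SkM libraries. A list of 9 genes of fast skeletal muscle fibres (Myh4, Myh1, Actn3, Tnnt3, Tnni2, Tnnc2, Mylpf, Pvalb and Atp2a1) summed to 160099 to 172420 CPM in SkM and to 158 to 181 CPM in 4 LV libraries. The LV library of WT replicate 2 held 39724 CPM of the same 9 genes, with the most counts in Myh4 at 18473 CPM. This library is therefore treated apart: the 4 other mice carry the tissue comparison, and in LV the genotype differences of the members it moves are given with and without it.

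**Figure D1:**
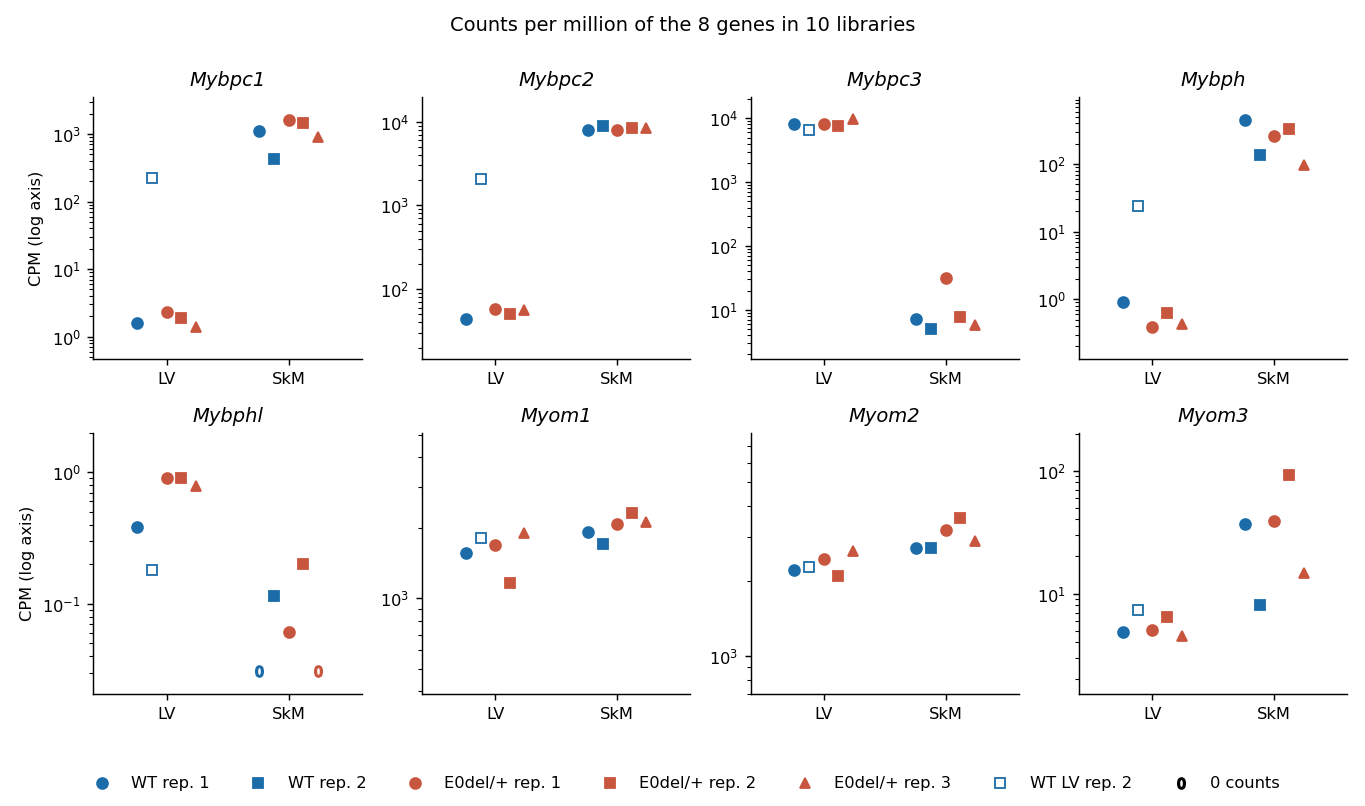
CPM of each of the 8 genes (log axis) in the 5 LV and 5 SkM libraries, 1 point per library, with genotype by colour and replicate by shape. WT LV replicate 2 (open square) has Mybpc1, Mybpc2 and Mybph at 221, 2090 and 23.9 CPM, far above the other 4 LV libraries, and the character 0 marks libraries with 0 counts of Mybphl.

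Mybpc3, the cardiac form of myosin-binding protein C, was the ventricular member. Its CPM in LV was 8167 in WT 1, 6597 in WT 2, and 8229, 7671 and 9741 in E0del/+ 1, 2 and 3. In SkM the same gene was at 7.13 and 5.09 CPM in WT 1 and 2 and at 31.1, 7.80 and 5.70 CPM in E0del/+ 1, 2 and 3. Every LV library was thus above every SkM library, by 264-fold to 1709-fold within the 4 mice, and the narrowest of these gaps belonged to E0del/+ mouse 1, whose SkM library had the highest Mybpc3 of that tissue.

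Mybpc2, the fast skeletal form, had the reverse arrangement. SkM libraries held 7939 and 8923 CPM in WT 1 and 2 and 7945, 8514 and 8389 CPM in E0del/+ 1, 2 and 3, a spread of only 1.12-fold from lowest to highest. LV libraries held 43.8 CPM in WT 1 and 57.7, 50.0 and 55.5 CPM in E0del/+ 1, 2 and 3, with 2090 CPM in WT 2. Without that last library the tissues differed by 138-fold to 181-fold within a mouse; in WT mouse 2 the factor was 4.27.

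Mybpc1, the slow skeletal form, also belonged to SkM but was far less even among mice. It was read at 1118 and 420 CPM in the SkM libraries of WT 1 and 2 and at 1599, 1467 and 906 CPM in those of E0del/+ 1, 2 and 3. Its LV values were 1.61 CPM in WT 1, 2.28, 1.91 and 1.40 CPM in E0del/+ 1, 2 and 3, and 221 CPM in WT 2. The SkM libraries spread over 3.81-fold, with WT 2 lowest and E0del/+ 3 next, whereas the difference between tissues was 649-fold to 769-fold within each of the 4 mice.

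Mybph, a short relative of the C-proteins that also binds myosin, was likewise higher in SkM. SkM libraries were at 445 and 138 CPM in WT 1 and 2 and at 261, 334 and 95.7 CPM in E0del/+ 1, 2 and 3, while LV libraries were at 0.922 CPM in WT 1 and at 0.391, 0.636 and 0.436 CPM in E0del/+ 1, 2 and 3. The LV values rest on 5 to 12 counts per library, again with the exception of WT 2 at 23.9 CPM. Exons of Mybph share 662 bases, 36.2% of its exon length, with Adora1 on the other strand. Since the library kit does not mark strand, reads of the pair cannot be told apart there; Adora1 was at 12.1 to 36.0 CPM over the 10 libraries.

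Mybphl, a relative of Mybph known from atrial muscle, was near the limit of detection. The LV libraries had 5 and 2 counts in WT 1 and 2 and 14, 10 and 9 counts in E0del/+ 1, 2 and 3, which is 0.180 to 0.911 CPM. SkM libraries had 0 and 2 counts in WT 1 and 2 and 1, 3 and 0 counts in E0del/+ 1, 2 and 3. A count of 0 allows up to 0.216 CPM in WT SkM 1 and 0.211 CPM in E0del/+ SkM 3 (3 counts); such floors, and all intervals on a single library, cover counting error only. Of 5 atrial markers (Myl7, Myl4, Sln, Nppa and Bmp10), the sum was 202 to 594 CPM in LV and 5.42 to 17.2 CPM in SkM; Nppa had the most counts in every LV library and Bmp10 was at 0 counts in 3 of 5 LV and all 5 SkM libraries.

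Myom1, the myomesin present in all striated muscle, was expressed in both tissues at much the same CPM. Its LV values were 1565 and 1804 in WT 1 and 2 and 1691, 1166 and 1908 in E0del/+ 1, 2 and 3. In SkM they were 1922 and 1707 in WT 1 and 2 and 2075, 2322 and 2120 in E0del/+ 1, 2 and 3. The ranges of the tissues overlapped once WT mouse 2 was counted, and within the other 4 mice SkM was 1.11-fold to 1.99-fold above LV.

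Myom2, the M-protein, which marks fast fibres and heart, resembled Myom1. LV held 2209 and 2283 CPM in WT 1 and 2 and 2459, 2096 and 2635 CPM in E0del/+ 1, 2 and 3. SkM held 2727 and 2715 CPM in WT 1 and 2 and 3218, 3600 and 2890 CPM in E0del/+ 1, 2 and 3. All SkM libraries were above all LV libraries, but by only 1.10-fold to 1.72-fold within a mouse.

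Myom3, a myomesin of slower skeletal fibres, was the rarest of its family. It was at 4.84 and 7.38 CPM in LV of WT 1 and 2 and at 5.08, 6.45 and 4.54 CPM in LV of E0del/+ 1, 2 and 3. The SkM libraries had 36.9 and 8.12 CPM in WT 1 and 2 and 38.9, 92.5 and 14.6 CPM in E0del/+ 1, 2 and 3. SkM was above LV throughout, yet its own libraries differed by 11.4-fold, more than for any other member apart from Mybphl with its counts of 0, and WT 2 and E0del/+ 3 were again the lowest.

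Set beside each other per length, the 6 highest genes kept a fixed order in the 4 LV libraries. Mybpc3 led at 2037 ± 216 RPKM (SD, n = 4), before Myom2 at 474 ± 49.1, Myom1 at 282 ± 55.5, Ttn at 66.7 ± 10.6, Mybpc2 at 14.3 ± 1.71 and Myom3 at 0.937 ± 0.152 RPKM. The ranges of these neighbours did not overlap, whereas Mybpc1, Mybph and Mybphl, at the bottom, did overlap. In SkM the order was Mybpc2 at 2302 ± 114 RPKM (SD, n = 5), Myom2 at 612 ± 76.3, Myom1 at 362 ± 41.0 and Mybpc1 at 277 ± 118, followed by Ttn at 178 ± 39.0, Mybph at 139 ± 78.0, Myom3 at 6.85 ± 5.96 and Mybpc3 at 2.74 ± 2.68. Mybpc2 and Myom2 stood clear of their neighbours in every SkM library, while Myom1, Mybpc1, Ttn and Mybph overlapped in places: Mybpc1 was above Myom1 in E0del/+ 1 (402 against 370 RPKM) and below Ttn in WT 2 (105 against 152 RPKM). Myom3 and Mybpc3 overlapped as well, with Mybpc3 above Myom3 in E0del/+ 1 (7.50 against 6.98 RPKM).

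The total of the C-protein family moved far less than its makeup. The 5 C-protein genes together were at 2052 ± 216 RPKM in LV (SD, n = 4) and 2721 ± 117 RPKM in SkM (SD, n = 5). This total is scaled by the counts of the library. Scaling by TMM, with factors of 1.16 to 1.38 in LV and 0.73 to 0.88 in SkM of the 4 mice, would widen the gap. Mybpc3 made up 99.2% of that total in LV, and Mybpc2 most of the remainder at 0.698%. In SkM, Mybpc2 made up 84.7% ± 6.01, Mybpc1 10.1% ± 4.08, Mybph 5.06% ± 2.78 and Mybpc3 0.10% ± 0.0972 (SD, n = 5). That last mean rests on E0del/+ 1, where Mybpc3 was 0.273%, against 0.0464% to 0.0647% in the other SkM libraries. The share of Mybpc1 ranged from 3.99% in WT 2 to 14.6% in E0del/+ 1. In WT LV 2, Mybpc3 was 71.1%, Mybpc2 25.8% and Mybpc1 2.48% of the family.

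The myomesins hardly changed their proportions between tissues. Myom1 was 37.0% ± 2.80 of the family in LV (SD, n = 4) and 36.9% ± 1.61 in SkM (SD, n = 5), and Myom2 was 62.9% ± 2.76 and 62.4% ± 1.51. Myom3 accounted for 0.127% in LV and 0.658% in SkM. Per length, Myom2 exceeded Myom1 in every library, by a factor between 1.43 (WT LV 2) and 2.04 (E0del/+ LV 2). The family total was 757 ± 103 RPKM in LV and 980 ± 119 RPKM in SkM, again scaled by the counts of the library and not by TMM. These are bulk values, in which fewer cells of a type and less RNA per cell cannot be told apart.

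**Figure D2:**
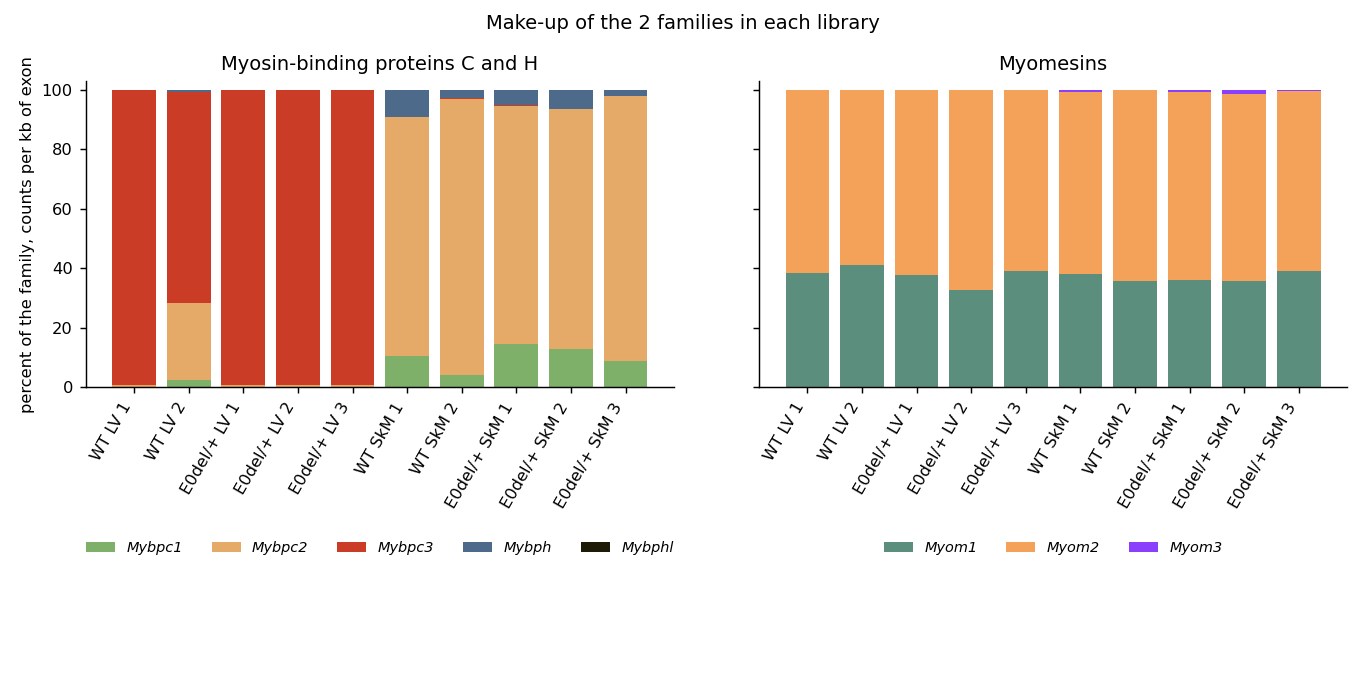
Share of each gene in its family's total counts per kb of exon (percent, stacked bars), for each of the 10 libraries. Mybpc3 fills 99.2% of the C-protein bar in 4 LV libraries and 71.1% in WT LV 2, Mybpc2 takes 84.7% on average in SkM, and Myom1 and Myom2 keep nearly the same split in LV and SkM.

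The tissue difference was tested within mice by edgeR's quasi-likelihood test with the mouse as a block, over 13375 genes in the 8 libraries of 4 mice. Of the 7 members tested, 6 were higher in SkM, where 29.8% of all genes were called higher at an adjusted p under 0.05. The remaining member, Mybpc3, was higher in LV, as were 31.5% of all genes. Read against it, the count of called members lies above the background in SkM, but Mybph passed the filter on low counts only through SkM, where it is high, and so had to differ, and the members were chosen as muscle genes. Their median log2 difference (SkM minus LV) was 3.55, against -0.02 over all genes tested.

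The largest differences were those of the C-protein family. In log2 units (SkM minus LV, SE in brackets, adjusted p by edgeR), Mybpc1 differed by 10.10 (0.24), with an adjusted p of 2.48e-07, and Mybph by 9.51 (0.25), with an adjusted p of 3.39e-07. Mybpc2 differed by 7.97 (0.27), with an adjusted p of 7.47e-07. Mybpc3 was at -9.05 (0.56), with an adjusted p of 1.09e-05. All 4 mice showed each of these directions. Mybphl did not reach the filter; with no filter its fitted value was -2.84, with an edgeR adjusted p of 0.0350. Without WT replicate 1 it was tested at an adjusted p of 0.0575, the upper end of the range of 0.0350 to 0.0575 over these 2 alternatives.

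Among the myomesins, Myom3 differed most, by 3.55 (0.36) on the log2 scale with an edgeR adjusted p of 0.000110. Myom1 and Myom2 differed by 1.08 (0.24) and 1.05 (0.22), with adjusted p of 0.00595 and 0.00452, higher in SkM in 4 of 4 mice. Ttn differed by 2.10 (0.26), with an adjusted p of 0.000311. The size for Myom1 and Myom2 depends on the scaling. Scaled by total counts in place of TMM, they differed by 0.43 and 0.40, with edgeR adjusted p of 0.0452 and 0.0335, the upper ends of the ranges over all alternatives (4.22e-06 to 0.0452 and 2.72e-07 to 0.0335). The same change of scaling moved the median of all genes from -0.02 to -0.67 and the split of called genes from 3991 higher and 4211 lower in SkM to 1698 higher and 7683 lower.

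**Figure D3:**
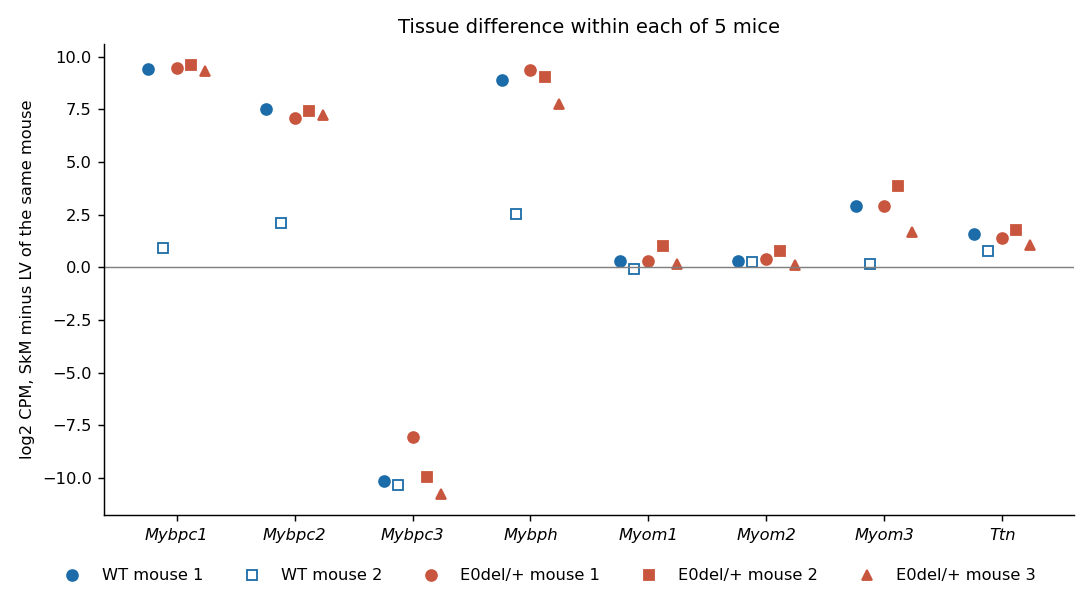
Difference in log2 CPM between SkM and LV of the same mouse for 7 members and Ttn, 1 point per mouse (n = 5), with 0 marked by a line. Mybpc1, Mybpc2, Mybph and Myom3 lie at 1.68 to 9.59 for 4 mice and at 0.14 to 2.53 for WT mouse 2 (open squares), Mybpc3 lies between -10.74 and -8.05, and Myom1 and Myom2 stay within 1 unit of 0.

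The 250 bases upstream of the start are shown for the 3 full-length C-proteins, as forms of different muscles, and for Myom1, as a gene high in both tissues. RefSeq promoter entries (GRCm38.p6) were matched by symbol for 7 of the 8 members; Myom2 had no match. They are Mybpc1 at chr10:88605153-88605402 (minus strand), Mybpc2 at chr7:44524670-44524919 (minus strand), Mybpc3 at chr2:91117894-91118143 (plus strand) and Myom1 at chr17:71019307-71019556 (plus strand), each ending at the base before the annotated gene. Capitals mark the letters TATTTA (or TAAATA on the other strand) and CATTCC (or GGAATG), chosen with the sequences seen, after the core letters of MEF2 and TEAD binding motifs.
Mybpc1: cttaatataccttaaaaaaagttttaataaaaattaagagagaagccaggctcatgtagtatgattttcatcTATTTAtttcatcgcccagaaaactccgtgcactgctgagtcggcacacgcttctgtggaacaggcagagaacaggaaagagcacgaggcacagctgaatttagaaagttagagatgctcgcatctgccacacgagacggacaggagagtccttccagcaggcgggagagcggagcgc
Mybpc2: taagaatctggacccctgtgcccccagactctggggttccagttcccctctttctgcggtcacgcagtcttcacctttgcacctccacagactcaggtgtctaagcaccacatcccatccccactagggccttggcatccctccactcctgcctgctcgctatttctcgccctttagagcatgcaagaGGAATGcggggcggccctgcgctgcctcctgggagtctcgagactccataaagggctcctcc
Mybpc3: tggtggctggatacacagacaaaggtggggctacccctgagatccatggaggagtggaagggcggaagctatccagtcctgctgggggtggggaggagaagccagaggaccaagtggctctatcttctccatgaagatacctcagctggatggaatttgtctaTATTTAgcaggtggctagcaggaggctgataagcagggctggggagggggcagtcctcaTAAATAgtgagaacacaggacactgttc
Myom1: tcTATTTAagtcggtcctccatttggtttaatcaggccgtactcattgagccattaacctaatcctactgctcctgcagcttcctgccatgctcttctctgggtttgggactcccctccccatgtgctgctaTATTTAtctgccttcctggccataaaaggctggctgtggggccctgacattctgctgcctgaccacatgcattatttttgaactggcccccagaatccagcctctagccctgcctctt

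TATTTA was present on either strand in 12.7% of the 32851 mouse promoters of this length, CATTCC in 12.6%, and the E-box CANNTG in 66.2%. TATTTA occurred 2 times each before Mybpc3 and Myom1, 1 time before Mybpc1 and Myom3, and 0 times before Mybpc2, Mybph and Mybphl. CATTCC occurred 1 time each before Mybpc2 and Mybph and 0 times before the other 5. CANNTG occurred 3 times before Mybpc3 and Myom1, 2 times before Mybpc1, 1 time before Mybpc2, Mybph and Myom3, and 0 times before Mybphl. None of the 3 motifs was present before all of Mybpc1, Mybpc2, Mybph, Myom1 and Myom3 and absent before Mybpc3, and a match describes the letters alone.

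Low levels in the tissue where a C-protein is rare were compared with those of other genes of that tissue. Mybpc2 in the 4 LV libraries was at 0.620% of its SkM mean, whereas the 9 fast fibre genes were at 0.0939% to 0.148% of theirs. Mybpc1 was at 0.163% and Mybph at 0.234%. Thus Mybpc2 was the C-protein with the highest relative level in LV, above each of the 9 fast genes. Myom3 was at 13.7%; of the slow fibre troponins, Tnnt1 was at 12.6% and Tnni1 at 0.600%, and Myh7 and Myl2 of the slow fibre list are ventricular genes as well. The SkM mean of Myom3 covers uneven libraries (8.12 to 92.5 CPM). Within the 4 mice its ratio of LV to SkM ran from 0.0697 to 0.311. In the other direction, Mybpc3 in SkM was at 0.135% of its LV mean, and 5 ventricle genes, Myh6, Tnni3, Tnnt2, Ryr2 and Pln, ran from 0.135% (Ryr2) to 0.251% (Pln). Myl3, the remaining gene of that list, was far higher, at 0.618% to 3.90% of its LV mean in the 5 SkM libraries.

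E0del/+ SkM 1 was the library with the most Mybpc3 in SkM, 0.368% of the LV mean against 0.0602% to 0.0922% in the other 4. The ventricle genes were also at their highest there: Myh6 at 0.426%, Tnni3 at 0.391%, Tnnt2 at 0.358%, Ryr2 at 0.330% and Pln at 0.469% of their LV means. The whole list of 6 summed to 409 CPM in that library, with the most counts in Myh6 at 214 CPM, and to 83.3 to 302 CPM in the other 4. Myl3, which slow skeletal fibres also express, was highest in E0del/+ SkM 2. None of the 6 genes was at 0 counts in any SkM library, and their part in the Mybpc3 value was not tested.

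WT LV 2 held Mybpc1, Mybpc2 and Mybph at levels that were compared with each SkM library after subtracting the mean of the other 4 LV libraries from both. Against E0del/+ SkM 3, the excess was 24.3% of the SkM level so reduced for Mybpc1, 24.5% for Mybpc2 and 24.5% for Mybph, and the median of the 9 fast fibre genes was 22.6% (20.7% to 24.7%). Against SkM of its own mouse, the excess was 52.4% for Mybpc1, 23.0% for Mybpc2 and 17% for Mybph, with a median of 18.1% for the fast genes (15.7% to 44.6%). The proportions among Mybpc1, Mybpc2, Mybph and the fast genes in WT LV 2 were thus more even against the SkM of E0del/+ mouse 3 than against that of the same mouse. Against E0del/+ SkM 1, E0del/+ SkM 2 and WT SkM 1, Mybpc1 came to 13.7% to 19.6%, Mybph to 5.25% to 8.97% and Mybpc2 to 24.1% to 25.8%, with medians of 24.3% to 26.0% for the fast genes. Myom3 in this library, at 7.38 CPM, exceeded the other LV libraries by 2.47% to 6.79% of these same 3 SkM levels, reduced in the same way. For WT SkM 2 and E0del/+ SkM 3 no such share was computed for Myom3, since the LV mean (5.23 CPM) was a large part of its SkM level (8.12 and 14.6 CPM). The Myom3 shares thus cover only the SkM libraries where it is high. Against E0del/+ SkM 3, the fibre markers Myh2 and Tnni1 came to 21.9% and 20.7%. Against WT SkM 2 they came to 36.9% and 40.3%, and against the other 3 to 9.43% to 19.3% and 2.25% to 3.92%. All 9 fast fibre genes were above 0 in every library. Where the skeletal muscle transcripts of this library came from was not tested.

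Ttn itself was at 7959 and 9344 CPM in LV of WT 1 and 2 and at 7737, 5560 and 6597 CPM in LV of E0del/+ 1, 2 and 3. In SkM it was at 24205 and 15856 CPM in WT 1 and 2 and at 20092, 18854 and 13585 CPM in E0del/+ 1, 2 and 3. SkM was above LV in every mouse, by 2.06-fold to 3.39-fold in 4 and by 1.70-fold in WT mouse 2. Ratios to Ttn were formed within each library per kb of exon, so that no scaling between libraries enters. Summed Mybpc1, Mybpc2 and Mybpc3 came to 26.0 in LV of WT 1 and to 27.0, 34.9 and 37.4 in LV of E0del/+ 1, 2 and 3, with 24.8 in WT LV 2. In SkM they came to 10.7 and 16.9 in WT 1 and 2 and to 13.5, 15.0 and 19.5 in E0del/+ 1, 2 and 3. Every LV library was thus above every SkM library in C-protein counts per Ttn counts, both per kb of exon. Within the 4 mice the mean log2 difference (SkM minus LV) was -1.11 (SD 0.17), with an exact permutation p of 0.13, the smallest that 4 pairs can give.

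Summed Myom1, Myom2 and Myom3 behaved alike. Their ratio to Ttn was 9.51 in LV of WT 1, 8.75 in WT 2 and 10.8, 11.9 and 13.8 in E0del/+ 1, 2 and 3. In SkM it was 3.88 and 5.62 in WT 1 and 2 and 5.33, 6.40 and 7.40 in E0del/+ 1, 2 and 3. Again no SkM library reached the lowest LV library. The mean log2 difference was -1.02 (SD 0.19) over 4 mice, with an exact permutation p of 0.13. So although Myom1 and Myom2 were higher in SkM than in LV by the count test, their ratio to Ttn was lower, at -1.01 (SD 0.24) and -1.05 (SD 0.17) on the log2 scale, because Ttn counts were higher still in SkM.

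Single members spanned a much wider range relative to Ttn. The log2 ratio differed (SkM minus LV) by 8.01 (SD 0.23) for Mybpc1, 5.87 (SD 0.24) for Mybpc2, 7.33 (SD 0.52) for Mybph, 1.40 (SD 0.60) for Myom3 and -11.17 (SD 1.16) for Mybpc3. Each had the same sign in 4 of 4 mice and the same exact permutation p of 0.13. Adding WT mouse 2 took Myom3 to 1.00 with 4 of 5 mice higher (exact permutation p of 0.13). Gene counts do not separate the isoforms of Ttn, whose exon use differs between heart and skeletal muscle, so a ratio over the summed exon length is not a ratio of molecules.

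The 8 sarcomeric myosin heavy chain genes gave another reference. Relative to their sum per length, Mybpc1, Mybpc2 and Mybpc3 together were at 0.213 to 0.262 in LV and 0.179 to 0.196 in SkM. The myomesins were at 0.0813 to 0.0968 in LV and 0.0651 to 0.0806 in SkM. The tissue differences shrank accordingly, to -0.35 (SD 0.17) for the C-proteins and -0.26 (SD 0.20) for the myomesins on the log2 scale, lower in SkM in 4 of 4 mice with an exact permutation p of 0.13. Myom1 alone was lower in SkM in 3 of 4 mice, at -0.25 (SD 0.24), with an exact permutation p of 0.25. Ttn itself was at 0.00701 to 0.00930 of the myosin sum in LV and at 0.00929 to 0.0168 in SkM.

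**Figure D4:**
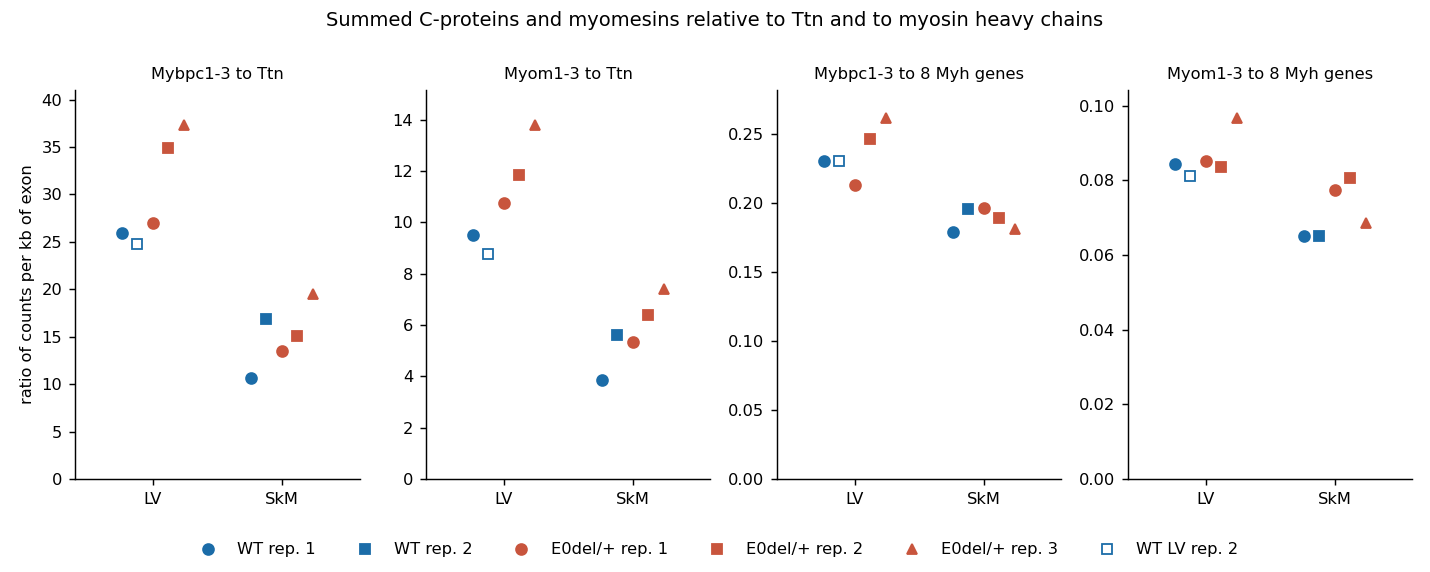
Ratio of summed Mybpc1 to Mybpc3 and of summed Myom1 to Myom3 to Ttn (left) and to 8 myosin heavy chain genes (right), all as counts per kb of exon, in the 5 LV and 5 SkM libraries, 1 point per library. LV lies above SkM in all 4 panels, with ratios to Ttn of 24.8 to 37.4 against 10.7 to 19.5 for the C-proteins and 8.75 to 13.8 against 3.88 to 7.40 for the myomesins.

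Within SkM, the uneven members were set beside markers of fibre type. Myh2, the myosin of type IIa fibres, was at 1009 and 528 CPM in WT 1 and 2 and at 1486, 2060 and 890 CPM in E0del/+ 1, 2 and 3. The 4 genes of slow fibres (Tnnt1, Tnni1, Myh7 and Myl2) summed to 1054 and 102 CPM in WT 1 and 2 and to 1451, 1927 and 215 CPM in E0del/+ 1, 2 and 3. Myh7 had the most counts of these in each SkM library, and none was at 0 counts. WT 2 and E0del/+ 3 were the lowest in both marker sets, and they were also the lowest for Mybpc1, Mybph and Myom3. Mybpc2, Myom1 and Myom2 did not follow this order. The 9 fast genes, whose sum is mostly Myh4 and Atp2a1, summed to nearly the same level in all 5 libraries, but not each of them was even. Myh1 was lowest in WT 2 (1707 CPM) and E0del/+ 3 (3240 CPM), against 5051 to 6774 CPM in the others, whereas Tnni2 was highest there (6059 and 4591 CPM, against 3446 to 3618 CPM), as were Tnnt3 and Pvalb.

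The libraries also split by Xist, the transcript of the inactive X chromosome. Xist was at 0.343 CPM in WT SkM 2 and 0.422 CPM in E0del/+ SkM 3, against 278 to 397 CPM in the other 3 SkM libraries; in LV of the same mice it was at 3.60 and 4.89 CPM, against 518 to 806 CPM. The labels do not give the sex of the mice, and they do not name the skeletal muscle. The parts of sex and of fibre makeup in the spread of Mybpc1, Mybph and Myom3 were not tested.

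**Figure D5:**
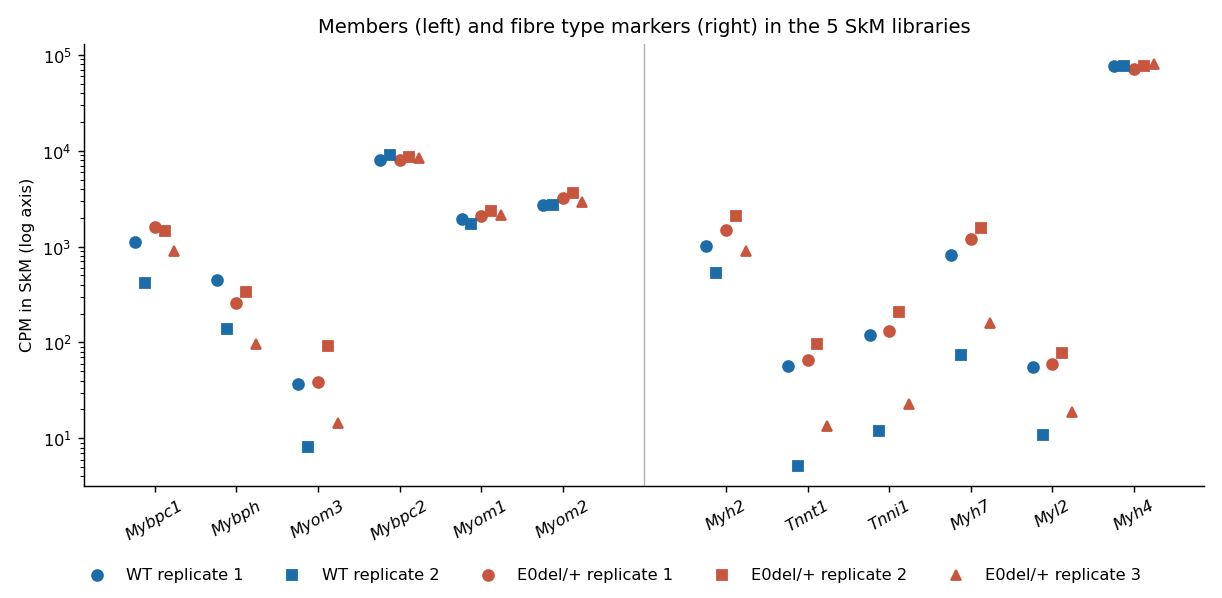
CPM (log axis) of 6 members (left) and 6 fibre type markers (right) in the 5 SkM libraries, with genotype by colour and replicate by shape. WT 2 and E0del/+ 3 are lowest for Mybpc1, Mybph and Myom3 and for Myh2, Tnnt1, Tnni1, Myh7 and Myl2, while Mybpc2 and Myh4 are even.

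Nearness was measured over 9 libraries (all but WT LV 2), as the smallest root mean square difference (RMS) between centred log2 profiles (CPM scaled by TMM, 0.5 added). The profiles nearest to each member were sought among the 8534 genes with a mean of at least 10 CPM, scaled by TMM, in these libraries. They are given for Mybpc1, Mybpc3 and the 3 myomesins, since for the others a member or its nearest genes lie below or near the added value in LV, which then weighs on the distance. For Mybpc1 these were Myh2 (0.233), Neb (0.310) and Myh1 (0.320), which encode IIa myosin, nebulin and IIx myosin. Mybpc3 was nearest to Ryr2 (0.352), the cardiac calcium release channel, Tnnt2 (0.374), cardiac troponin T, and Myh6 (0.447), the alpha myosin heavy chain.

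For the myomesins, Myom1 was nearest to Ccdc85c (0.103), Camsap1 (0.107) and Eif4g1 (0.113), and Myom2 to Myo18b (0.0759), a myosin of muscle sarcomeres, Rprd1b (0.0813) and Clip1 (0.0890). The profile of Myom3 was nearest to Tnnt1 (0.416), the slow troponin T, Fhl1 (0.486) and Cilp (0.523). The RMS of a member's own profile about its mean was 0.571 for Myom1, 0.539 for Myom2 and 4.66 for Mybpc1, so that the distances of the flat and the steep profiles are not on a par.

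The neighbours of the 8 genes in the sarcomere were counted from 3 lists. Of 16 titin and M-band partners, 11 were higher in SkM, 2 were higher in LV and 3 did not pass, where 29.8% of all genes were higher in SkM and 31.5% higher in LV. Counts of the 3 lists are given with TMM only; without it, 1698 of all genes were higher and 7683 lower in SkM. Trim63, called higher in SkM at 0.45, had more CPM in LV in WT 1 (229 against 187) and E0del/+ 1 and 2 (242 against 183, 241 against 204). In E0del/+ 3 it had more in SkM (277 against 256). Their median log2 difference was 0.79, against -0.02 over all genes. Among the leading ones by mean CPM were Ttn, Ckm at 3.76 (muscle creatine kinase, held at the M-band) and Speg at 1.01 (a striated muscle kinase). Obsl1, which binds myomesin, was higher in LV at -0.65, as was Fhl2 at -8.24, a LIM protein that binds titin.

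Of 14 myosin genes of the thick filament, 13 were tested, 7 were higher in SkM, 4 were higher in LV and 2 did not pass, against the same 29.8% and 31.5% of all genes. Among the 7 are Myh3 and Myh8, the embryonic and perinatal myosins, with 0 to 3 and 0 to 5 counts in the 4 LV libraries; they passed the filter only through SkM and so had to differ, and the median of this list, 5.35, is the value of Myh3. Those with the highest mean CPM, which favours long genes, were Myh4 at 10.65, Myh6 at -8.39, Myl1 at 8.31 and Myh1 at 10.22. Of 11 genes for assembly of the filament and for its kinases, 3 were higher in SkM, which is near the 29.8% of all genes, 6 were higher in LV, against 31.5%, and 2 did not pass (median -0.64). Among the 6, Mylk3 and Prkd1 were low in SkM of the 4 mice, at 0.704 to 2.95 and 0.666 to 5.56 CPM. They passed the filter on low counts only with LV, where they are higher. By mean CPM the leading ones here were Hspb7 at -3.09 (a cardiac small heat shock protein), Mylk4 at 3.13 and Mylk2 at 10.15 (myosin light chain kinases) and Unc45b at 1.21 (the myosin chaperone).

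E0del/+ was compared with WT in LV by the same test over 13420 genes, to ask whether loss of 1 copy of E0 comes with changes in titin's partners. All 8 members were tested and 0 were called, as 0% of all genes: edgeR called 0 genes at an adjusted p under 0.05 and had 564 genes at an unadjusted p under 0.05, and DESeq2 called 0 and had 536. Mybpc3 differed by 0.16 (SE 0.25) on the log2 scale (E0del/+ minus WT), Myom1 by -0.14 (SE 0.30), Myom2 by 0.04 (SE 0.24) and Myom3 by -0.28 (SE 0.30). The CPM of these 4 genes overlapped between genotypes, and the direction of Myom1 and Myom3 turned when WT replicate 2 was left out (0.05 and 0.14), as did that of Myom2 without WT replicate 1 (-0.05). Leaving out another library also turned Myom1 and Myom2. Over all libraries left out in turn they ran from -0.34 to 0.0910 and from -0.0906 to 0.18. Mybpc3 was at 0.08 without WT replicate 2 and at 0.00 without E0del/+ replicate 3. For comparison Ttn differed by -0.45 (SE 0.27), with all 3 E0del/+ libraries (5560 to 7737 CPM) below both WT libraries (7959 CPM in WT 1 and 9344 CPM in WT 2). Without WT LV 2 it differed by -0.25 (SE 0.39). The edgeR adjusted p was 0.997 for each of the 8 members and for Ttn.

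Mybpc1, Mybpc2 and Mybph had large differences in LV that rest on WT LV 2. They were -6.01 (SE 1.45), -4.42 (SE 1.14) and -4.79 (SE 1.13) on the log2 scale with it. Without WT LV replicate 2, Mybpc1 and Mybpc2 were at 0.22 and 0.32 and Mybph at -0.93, and 0 genes were called by edgeR, with 104 at an unadjusted p under 0.05. Without WT LV replicate 1, so that WT LV 2 alone stood for WT and was assumed to vary like the E0del/+ libraries, 578 genes were called, 574 of them lower in E0del/+. Among them were Mybpc1 at -6.99, Mybpc2 at -5.39 and Mybph at -5.75, with edgeR adjusted p of 6.65e-08, 7.86e-07 and 1.53e-06. Over all alternatives their adjusted p ranged from these values to 1.00.

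Mybphl was above both WT libraries in all 3 E0del/+ LV libraries, at 0.785 to 0.911 CPM against 0.180 and 0.384 CPM, a log2 difference of 1.51 (SE 0.65). In LV, 8.82% of genes had E0del/+ above WT without overlap, and Mybphl was the 1 of 8 members to do so. Another 6.53% had E0del/+ below WT without overlap, and Mybph was the 1 member to do so, at 0.391 to 0.636 CPM against 0.922 and 23.9 CPM. Read against it, 1 of 8 in each direction is near the background, and both genes rest on at most 14 counts per library outside WT LV 2. The sum of the 5 atrial markers, which is mostly Nppa, was also higher, at 231, 594 and 437 CPM in LV of E0del/+ 1, 2 and 3 against 222 and 202 CPM in WT 1 and 2. Myl4 and Myl7 differed by 1.10 and 1.23 on the log2 scale, with an edgeR adjusted p of 0.997, and their CPM overlapped between genotypes, as did that of Sln and Bmp10; the part of atrial tissue in the Mybphl value was not tested.

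With the replicate as a block, edgeR called 5 genes in LV in place of 0. They were Mstn, the inhibitor of muscle growth, at -4.58, and 4 genes of the Y chromosome, Kdm5d at -10.26, Eif2s3y at -4.91, Uty at -5.37 and Ddx3y at -5.78, named after their values were seen. With Xist expression as the block, edgeR called 0 genes. In batch 2 the replicate block sets WT LV 2 (Xist at 3.60 CPM, with skeletal muscle transcripts) beside E0del/+ LV 2 (Xist at 806 CPM). The parts of sex and of those transcripts in the 5 calls under the replicate block were not tested. No member was called in that fit, where Mybph was at -3.95 with an adjusted p of 0.0804 (range 1.53e-06 to 1.00 over its alternatives).

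In SkM the same comparison covered 13154 genes and 7 of the members, since Mybphl did not reach the filter. Again 0 members were called, as 0% of all genes. By edgeR 0 genes passed and 114 had an unadjusted p under 0.05, and by DESeq2 0 passed and 151 did. Myom1 differed by 0.27 (SE 0.16) and Myom2 by 0.25 (SE 0.19) on the log2 scale, and for both genes all 3 E0del/+ libraries (2075 to 2322 and 2890 to 3600 CPM) were above both WT libraries (1707 to 1922 and 2715 to 2727 CPM). In SkM, 4.14% of genes had E0del/+ above WT without overlap and 7.31% had E0del/+ below it. Read against the first, 2 of 7 members is more than the background share, but neither gene reached the threshold, with an edgeR adjusted p of 1.00. With the replicate as a block the differences were 0.28 and 0.32, and 0.27 and 0.25 with Xist expression as a block, an alternative chosen after the data were seen. Leaving out 1 library at a time, they were at 0.19 to 0.33 and at 0.13 to 0.39.

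Other members in SkM overlapped between genotypes. Mybpc2 differed by -0.03 (SE 0.20), Mybph by -0.27 (SE 0.63), Mybpc1 by 0.84 (SE 0.42), Mybpc3 by 1.27 (SE 0.75) and Myom3 by 1.22 (SE 0.91) on the log2 scale, all with an edgeR adjusted p of 1.00. Single libraries weigh on several of these. Mybpc1 was at 1.53 without WT replicate 1 and at 0.38 without WT replicate 2, Myom3 at 2.48 and 0.56, Mybph at 0.62 and -0.81, and Mybpc2 at -0.23 and 0.20. Myom3 was at 0.28 without E0del/+ replicate 2, the library with its highest value. The fibre markers Myh2 and Myh7 differed by 0.99 (SE 0.42) and 1.22 (SE 1.21) in the same fit, without passing the threshold. Mybpc3 fell to 0.20 without E0del/+ replicate 1, the library with the most ventricle transcripts. The replicate block called 1 gene in SkM in place of 0, Eif2s3y of the Y chromosome at -6.60, named after its value was seen. In batch 2 this block sets WT SkM 2, with Xist at 0.343 CPM, beside E0del/+ SkM 2, with Xist at 278 CPM.

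The test of whether genotype acts differently in the tissues, over 14327 genes, called 0 genes (0%), 0 of 8 members among them. It had 238 genes at an unadjusted p under 0.05 by edgeR, the only tool run for it. For Myom1 the interaction was 0.41 (SE 0.51) and for Myom2 0.19 (SE 0.50), and 0.39 and 0.34 without both libraries of WT mouse 2. Mybpc1, Mybpc2 and Mybph were at 4.64, 2.50 and 3.70 with WT mouse 2 and at 0.24, -0.04 and 0.17 without both of its libraries. None of the 3 lists of neighbouring genes had a member called in LV, in SkM or in the interaction. No list median is given for these comparisons, since single libraries weigh on the myosins: with WT LV 2, Myh1, Myh2, Myh4, Myl1 and Mylpf were at -7.09 to -4.90 in LV, and in SkM Myh1 and Myh2 were lowest in WT 2.

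Relative to Ttn, the myomesins were higher in E0del/+ in both tissues without passing a test. In LV the log2 ratio of summed Myom1, Myom2 and Myom3 was higher by 0.40 in E0del/+ (exact permutation p of 0.2), and in SkM by 0.44 (exact permutation p of 0.3). With 2 against 3 libraries the smallest p is 0.1. Within batches 1 and 2 the differences were 0.18 and 0.44 in LV and 0.46 and 0.19 in SkM; batch 3 has no WT. Without WT LV replicate 2 the difference in LV was 0.34; in SkM it was 0.17 without WT replicate 1 and 0.70 without WT replicate 2. In LV all 3 E0del/+ ratios (10.8 to 13.8) exceeded both WT ratios (8.75 and 9.51), while in SkM E0del/+ 1 (5.33) lay below WT 2 (5.62). The share of all genes whose ratio to Ttn is without overlap was not computed. Ttn CPM itself was lower in E0del/+ LV without overlap, so the separation in LV is not read as a result about the myomesins. Since Ttn is the denominator, and E0 lies in it, these ratios carry the difference in Ttn as well.

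The C-proteins relative to Ttn resembled the myomesins in LV and were less regular in SkM. In LV the E0del/+ ratios of their sum (27.0 to 37.4) also lay above both WT ratios (24.8 and 26.0), with the same limits. The sum of Mybpc1, Mybpc2 and Mybpc3 differed by 0.37 in LV (exact permutation p of 0.2) and by 0.24 in SkM (exact permutation p of 0.5), with 0.05 and 0.49 within batches 1 and 2 in LV and 0.34 and -0.17 in SkM. Without WT LV replicate 2 the sum differed by 0.34 in LV; in SkM it differed by -0.09 without WT replicate 1 and by 0.57 without WT replicate 2. Mybpc3 in LV differed by 0.60 (exact permutation p of 0.2; 0.05 and 0.97 within batches), a value that rests in part on WT LV 2 and was 0.33 without it, and Mybpc1 in SkM by 1.09 (exact permutation p of 0.1, the smallest possible; 0.78 and 1.56 within batches), or 0.69 without WT replicate 2. The fibre markers Myh2 and Myh7 also differed in SkM, by 0.99 and 1.22 in the edgeR fit, without passing the threshold. WT 2 was lowest for both, and their part in the Mybpc1 value was not tested. Against the myosin heavy chains the genotype differences of the sums were 0.06 and 0.01 for the C-proteins in LV and SkM and 0.09 and 0.21 for the myomesins (exact permutation p of 0.7, 0.7, 0.5 and 0.2).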

How the data were processed

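Poly(A) RNA was sequenced in 10 libraries, 1 per tissue of each of 5 mice, 11010021 to 17484873 counts per library (median 14050603). The authors name STAR, DESeq2 and mm10 in their processing notes; the raw counts per gene were deposited by the authors, and how reads were counted is not stated in the sources used here. The authors also deposited RPKM, which equal count over exon length and library total (maximum relative difference 2.67e-14).

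CPM, ratios per kb of exon and 95% Wilson intervals were computed from the counts. Tests used edgeR 4.0.16 (quasi-likelihood, TMM, filterByExpr) in R 4.3.3, with DESeq2 1.42.0 as another tool and limma 3.58.1 loaded by edgeR, at a Benjamini-Hochberg adjusted p under 0.05 over all genes tested; the code was tested on simulated data. LV and SkM were compared with the mouse as a block in 4 mice, WT mouse 2 being left out because of its LV library. Genotypes were compared within each tissue, and ratios by exact permutation. Library names tie LV to SkM of a mouse, and per the labels the replicate number is the batch. Same-numbered WT and E0del/+ libraries had correlations of deviations of 0.0310 and -0.118 in LV and 0.518 and 0.310 in SkM, and LV and SkM of a mouse -0.101 to 0.0918.

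Alternatives were all 5 mice, the replicate block added or removed, the size factors or the Wald test of DESeq2, dropping TMM, dropping the filter on low counts, 1 fit over 10 libraries, each library left out, another reference for ratios, and a block by Xist, chosen after the data were seen. The genes named are the 8 members and Ttn, the 3 nearest profiles of each member except Mybpc2, Mybph and Mybphl, and up to 4 genes per list with the highest mean CPM; the exceptions, or some of their nearest genes, lie below the 0.5 CPM added before logs in some libraries. Others are named as markers or as exceptions, and 1 gene of the lists and 1 marker list are not reported here. The members and the lists (titin and M-band partners, thick filament myosin, thick filament assembly and kinases, and tissue markers) were chosen with earlier results of these data known. Coordinates and overlapping genes come from GENCODE M21, promoter sequences from RefSeq.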

Additional observations from a re-analysis of the deposited data

Results flagged for a closer look

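In 18 groups of 5 libraries (9 genes in each tissue), 4 had 1 library far from the others by Dixon's ratio (critical value 0.71). Chance gives about 1 in 20 for independent groups of normal values. These groups share their libraries and WT LV 2 had been set apart before, so the count is not read against that rate. In LV, WT LV 2 stood apart for Mybpc1 (221 CPM, others 1.40 to 2.28), Mybpc2 (2090 CPM, others 43.8 to 57.7) and Mybph (23.9 CPM, others 0.391 to 0.922). In SkM, E0del/+ SkM 1 stood apart for Mybpc3 (31.1 CPM, others 5.09 to 7.80). Fast fibre genes were high in WT LV 2, and 5 ventricle genes were at their highest of the SkM libraries in E0del/+ SkM 1. Carry-over of RNA or tissue and expression by the sampled tissue cannot be told apart from these values.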

How the results depend on the processing

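In the tissue comparison, 70 of 70 values of the 7 members tested kept direction and side of the threshold, and the totals of genes and of members called stayed within 1.5 times in 20 of 20, with 6895 to 9381 genes called over the alternatives. The split by direction did not: by total counts without TMM, 1698 genes were higher and 7683 lower in SkM, in place of 3991 and 4211. Mybphl, not tested in that fit, had an edgeR adjusted p of 0.0350 with no filter, where 8 members were called in place of 7, and of 0.0575 without WT replicate 1. Of the genotype values 82 of 94 kept direction and side of the threshold in LV and 78 of 84 in SkM, and of the ratios to Ttn 55 of 63 between tissues, 58 of 63 by genotype in LV and 55 of 63 in SkM. Both alternatives of the interaction called 0 genes. The causes of the changes below were not tested.

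With the replicate as a block, the genes called moved from 0 to 5 in LV and from 0 to 1 in SkM, and the block changed no other call. Under it Mybpc3 in LV was at -0.0031, Myom2 in LV at -0.10 and Mybph in SkM at 0.25, and as ratio to Ttn in SkM, within batches, Mybpc2 was at -0.0239 and Mybph at 0.26. Without pairing by mouse the tissue ratios kept their values, and all but Myom3 had an exact permutation p of 0.0286: Mybpc1 8.01, Mybpc2 5.87, Mybpc3 -11.17, Mybph 7.33, Myom1 -1.01, Myom2 -1.05, C-protein sum -1.11 and myomesin sum -1.02. That p is the smallest this scheme can give. It ignores that the libraries are pairs from the same mice, so it is not stronger evidence than the paired test. Myom3, at 1.40, had an exact permutation p of 0.0571. With Xist expression as a block Mybpc2 in SkM was at 0.0168. With myosin heavy chains as the reference, Myom1 and Myom3 in LV were at -0.0315 and -0.0942 and Mybpc2 in SkM at -0.0681.

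Leaving out 1 library at a time, 0 to 578 genes were called in LV. The ranges in LV were -6.99 to 0.22 for Mybpc1, -5.39 to 0.32 for Mybpc2, 0.0017 to 0.29 for Mybpc3, -5.75 to -0.93 for Mybph, 1.16 to 2.09 for Mybphl, -0.34 to 0.0910 for Myom1, -0.0906 to 0.18 for Myom2 and -0.60 to 0.14 for Myom3. Mybphl was not tested without E0del/+ replicate 1 or without E0del/+ replicate 2, so its range leaves out these fits. In SkM they were 0.38 to 1.53 for Mybpc1, -0.23 to 0.20 for Mybpc2, 0.20 to 1.62 for Mybpc3, -0.81 to 0.62 for Mybph, 0.19 to 0.33 for Myom1, 0.13 to 0.39 for Myom2 and 0.28 to 2.48 for Myom3. As ratios to Ttn they were -6.41 to 0.45 for Mybpc1, -4.76 to 0.59 for Mybpc2 and -0.0447 to 0.41 for Myom3 in LV, and -0.23 to 0.55 for Mybpc2, -0.65 to 0.43 for Mybph and -0.0940 to 0.57 for the C-protein sum in SkM. With WT LV 2 included, the mean LV share of Mybpc3 in its family was 93.6% in place of 99.2%. Over the alternatives 4 of 8 share values moved. In WT LV 2 the shares of Mybpc2, Mybpc1 and Mybph were 25.8%, 2.48% and 0.586%. The means of the other 4 LV libraries were 0.698%, 0.0224% and 0.0162%.

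With 2 WT mice, and 1 where WT LV 2 is left out, genotype differences of the size of the spread among mice would be missed; a lone WT library is assumed to vary like the E0del/+ libraries. Batch 3 holds no WT. DESeq2 was not run for the interaction. Levels of Mybphl, and of Mybph in LV, are limited by depth, with 14 counts or fewer per library outside WT LV 2.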

Other observations

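Further marker lists were read in all libraries. The adipose list (Adipoq, Plin1, Cfd, Lep and Car3) summed to 5.41 to 31.4 CPM in 4 LV libraries, 953 CPM in WT LV 2 and 2473 to 5447 CPM in SkM. The SkM sums are mostly Car3 (2465 of 2473 CPM in WT SkM 2), and Adipoq, Plin1, Cfd and Lep were lower in WT SkM 2 (0.686, 0.858, 5.89 and 0.114 CPM) than in WT LV 2 (23.8, 45.9, 159 and 12.3 CPM). They were at 115, 189, 675 and 43.1 CPM in E0del/+ SkM 3, and at 14.9 to 66.7, 11.1 to 119, 105 to 811 and 1.97 to 12 CPM in the other 3 SkM libraries. In LV, Lep had 0 counts in E0del/+ LV 2, and both Lep and Adipoq had 0 in E0del/+ LV 3. The endothelial list (Pecam1, Cdh5 and Kdr) summed to 733 to 1458 CPM in LV and 79.2 to 178 CPM in SkM, and the fibroblast list (Col1a1, Col1a2, Pdgfra and Dcn) to 599 to 1067 CPM in LV and 93.2 to 295 CPM in SkM. Of 4 blood genes 2 were in the files: Hba-a1 had 0 counts in all 10 libraries, and Alas2 was at 21.7 to 31.6 CPM in LV and 2.52 to 20 CPM in SkM.

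Exons of 4 further genes overlap a gene on the other strand: Mybpc1 with Gm48752 (252 bases, 6.33% of its exon length), Mybpc2 with Gm44646 (192 bases, 5.30%), Mybphl with Gm12522 (89 bases, 6.97%) and Ttn with Gm13938 (453 bases, 0.434%).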
